A study of Mus musculus with 6 samples.

Results

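The 9 genes described here encode CXC chemokines, and they were taken by name: Cxcl1, Cxcl2, Cxcl5, Cxcl9, Cxcl10, Cxcl12, Cxcl13, Cxcl14 and Cxcl16. They were matched by Ensembl identifier in 6 single-cell count tables of mouse bladder mucosa. Of the 9, 6 were listed in every table and entered the tests among 14338 genes, while Cxcl5, Cxcl9 and Cxcl13 were listed in only some tables and are given as raw counts. The mucosa came from wild-type C57BL/6 mice aged 8 weeks, with 2 libraries per condition. The mice were healthy or had received cyclophosphamide (CPP), a drug whose metabolites injure the urothelium. The acute group was taken 48 h after CPP and the chronic group on day 11 of a course of 4 rounds of CPP. Per the paper, the chronic bladders were also harvested 48 h after the last round. Droplet capture with the 10x Genomics 3′ chemistry gave counts of unique molecular identifiers (UMIs), each standing for 1 captured transcript.

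The study names the 2 libraries of a condition biological replicates and used more mice than libraries, so single animals cannot be told apart. It also processed the libraries in batches that the labels do not name, so batch and condition cannot be told apart either. Of 56629 barcodes, 50929 passed the filters and were not called doublets, and 36964 of these fell into the 7 classes compared: basal, intermediate and superficial urothelial cells outside the cell cycle, fibroblasts, myofibroblasts, macrophages that carry C1q complement transcripts, and endothelial cells. Library totals ran from 54604109 to 111985678 UMIs, and any 2 libraries shared between 36 and 229 barcode sequences, at most 2.28% of the smaller library. All markers listed for each class were detected in that class, but they were also detected in the other classes, so detection alone does not set the classes apart. Macrophages, endothelial cells and 1 fibroblast sum were thin. Macrophages numbered 36 to 127 cells per library and endothelial cells 27 to 322 in the 5 libraries used (the 15 endothelial cells of healthy replicate 2 were left out), while the fibroblast class of chronic replicate 2 held 22 cells.

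CXC chemokines are small secreted proteins that bind heparan sulfate and steer leukocytes by way of G protein-coupled receptors. Cxcl1, Cxcl2 and Cxcl5 carry the ELR motif and draw neutrophils through Cxcr2. Cxcl9 and Cxcl10 are induced by interferon and call T cells and NK cells through Cxcr3, whereas Cxcl13 organises B cells through Cxcr5. Cxcl12 is made constitutively by stroma and acts through Cxcr4, with Ackr3 as its scavenger, Cxcl14 is a homeostatic member without a settled receptor, and Cxcl16 is made as a membrane-bound ligand of Cxcr6 that Adam10 and Adam17 can shed. The inflammatory members are switched on by NF-kB, and in infected bladder Cxcl1 and Cxcl2 are known to bring neutrophils to the urothelium.

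On build GRCm38, 6 of the 9 lie on chromosome 5 between 90759360 and 95961068. Cxcl1 (90891241 to 90893115, plus strand) ends 10756 bases before the start of Cxcl2 (90903871 to 90905938, plus strand). The same span holds Cxcl5 (90759360 to 90761624), Cxcl9 (92321347 to 92328079), Cxcl10 (92346638 to 92348889, minus strand) and Cxcl13 (95956951 to 95961068). Cxcl12 lies on chromosome 6 (117168535 to 117181367), Cxcl14 on chromosome 13 (56288643 to 56296551) and Cxcl16 on chromosome 11 (70453983 to 70459984). The 250 bases before the RefSeq start of 4 members are shown: Cxcl1, Cxcl2 and Cxcl10, whose levels below differ widely between libraries of 1 condition, and Cxcl14, the most abundant stromal member. Capitals mark matches on either strand to an NF-kB (kB) motif, GGG and TTCC with any 3 bases between them, or to an interferon-stimulated response element, GAAA and GAAA with any 2 bases between them; neighbouring kB matches overlap where the run of capitals is longer than the motif. All sequences are from RefSeq on GRCm38 and read 5′ to 3′ on the strand of the gene.

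Cxcl1, chr5:90890995-90891244, plus strand: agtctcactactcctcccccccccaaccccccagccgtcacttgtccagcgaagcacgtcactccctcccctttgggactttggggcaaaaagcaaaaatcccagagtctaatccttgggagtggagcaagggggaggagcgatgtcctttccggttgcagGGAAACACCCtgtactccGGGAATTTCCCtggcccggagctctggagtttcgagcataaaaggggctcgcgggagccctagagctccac

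Cxcl2, chr5:90903649-90903898, plus strand: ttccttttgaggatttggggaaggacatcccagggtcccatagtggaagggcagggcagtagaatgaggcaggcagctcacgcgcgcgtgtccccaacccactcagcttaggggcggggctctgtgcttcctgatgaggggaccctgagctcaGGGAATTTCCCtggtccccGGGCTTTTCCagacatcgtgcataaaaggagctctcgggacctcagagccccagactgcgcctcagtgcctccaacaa

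Cxcl10, chr5:92348890-92349139, minus strand: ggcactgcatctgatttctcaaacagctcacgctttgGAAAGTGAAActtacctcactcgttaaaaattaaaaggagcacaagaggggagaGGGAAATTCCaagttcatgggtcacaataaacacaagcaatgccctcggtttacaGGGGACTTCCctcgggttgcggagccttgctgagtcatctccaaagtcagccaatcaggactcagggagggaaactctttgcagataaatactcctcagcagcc

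Cxcl14, chr13:56296552-56296801, minus strand: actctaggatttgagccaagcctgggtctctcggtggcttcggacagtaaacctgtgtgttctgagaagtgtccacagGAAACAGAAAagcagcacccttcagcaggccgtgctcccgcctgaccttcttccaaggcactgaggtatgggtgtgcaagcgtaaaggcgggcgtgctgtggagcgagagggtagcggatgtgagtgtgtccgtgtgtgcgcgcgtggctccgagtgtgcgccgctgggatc

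Promoter windows of 250 bases were at hand for 7 of the 9 members. Matches to the kB motif were present in 3 of the 7 (Cxcl1, Cxcl2 and Cxcl10) against 4.65% of 32851 mouse promoters of the same length, and matches to the interferon element in 2 of the 7 (Cxcl10 and Cxcl14) against 2.98%. In the windows of Cxcl1 and Cxcl2 the match GGGAATTTCC lay 71 to 62 and 97 to 88 bases before the start. The Cxcl10 window held GGGAAATTCC and GGGGACTTCC together with GAAAGTGAAA, and the Cxcl14 window held GAAACAGAAA alone. The windows of Cxcl9, Cxcl12 and Cxcl13 held neither set of letters.

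**Figure D1:**
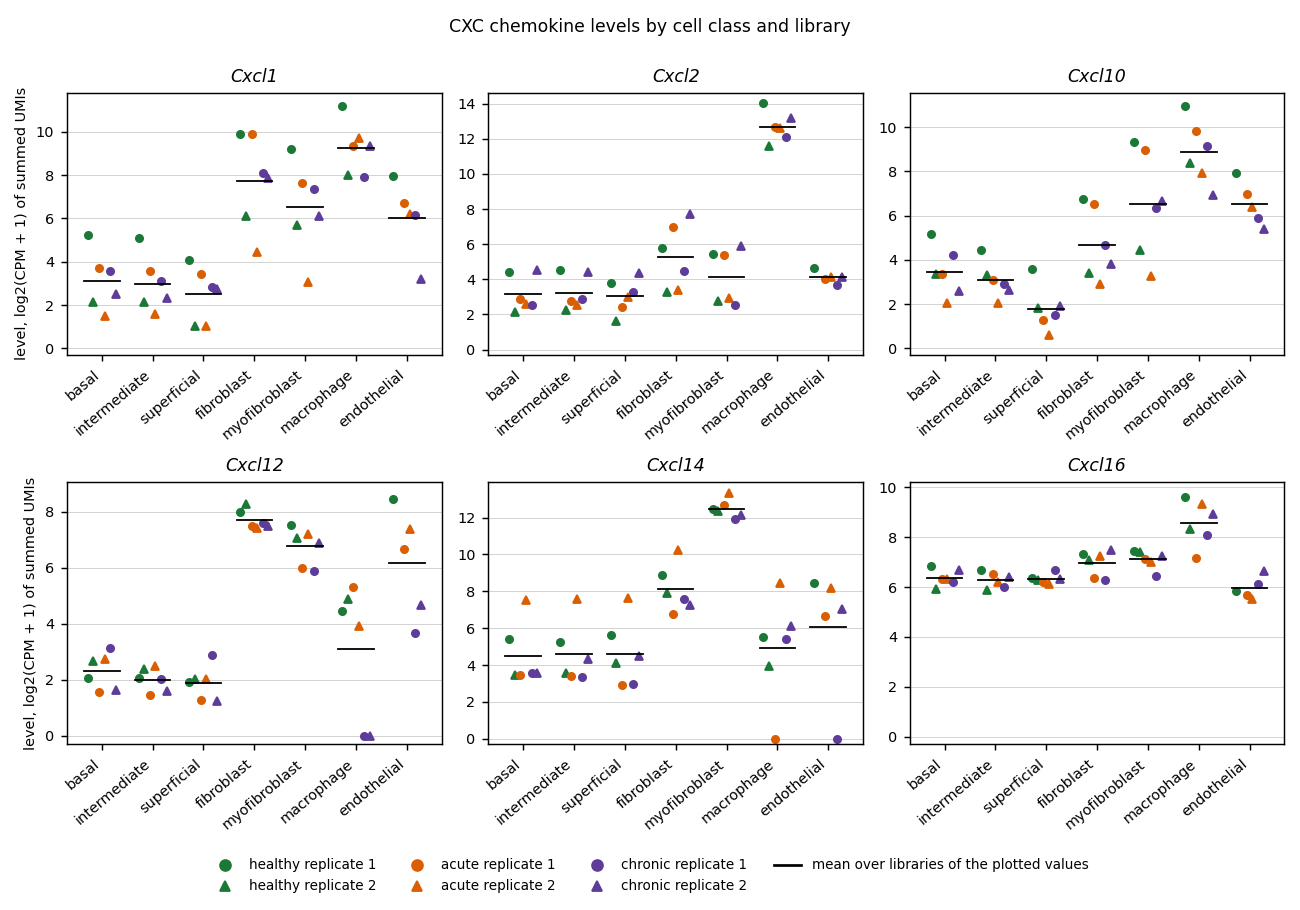
Level of each of the 6 tested chemokines, as log2(CPM + 1) of UMIs summed per library and class (vertical axis; CPM, a gene's UMIs scaled to a common total per sum), in 7 cell classes (horizontal axis). Points are libraries with at least 20 cells of the class, coloured by condition, and bars are means of the plotted values over libraries. Cxcl2 is highest in macrophages and Cxcl14 in myofibroblasts. Cxcl12 has its highest mean in fibroblasts, not beyond the spread of endothelial cells. Cxcl1 and Cxcl10 spread widely between libraries of 1 condition.

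Each chemokine had its own pattern over the classes, and 17 of 29 tests between classes passed (edgeR quasi-likelihood test with the library as a block, Benjamini-Hochberg adjusted p below 0.05 over all genes). Levels are given as CPM, a gene's UMIs scaled to a common total after summing over the cells of a class in a library; the chemokines and their receptors were kept out of the features used for clustering, so they did not define the classes. Macrophages differed from fibroblasts in all 6 members, 4 higher and 2 lower, where 46.8% of 4506 genes passed. Myofibroblasts differed from fibroblasts in 5 of 6, 2 higher and 3 lower, where 21% of 9774 genes passed. Endothelial cells differed from fibroblasts in 4 of the 5 tested, 1 higher and 3 lower, where 40% of 5844 genes passed. Within the urothelium only 1 of 6 members differed between basal and intermediate cells and 1 of 6 between superficial and intermediate cells, against 44.5% of 11638 and 53.3% of 11528 genes.

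Among the neutrophil-attracting ligands, Cxcl2 was carried by macrophages. Its macrophage level was 16532 CPM in healthy replicate 1, 3099 in healthy replicate 2, 6408 and 6210.1 in the acute libraries, and 4421 and 9175 in the chronic libraries. Every one of these values lay above every value in the other 6 classes, where the highest was 206 CPM, in the fibroblasts of chronic replicate 2. Macrophages made up 0.527% to 1.07% of the cells of a library but held 55.1% to 77.4% of its Cxcl2 UMIs.

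Across the 6 libraries Cxcl2 averaged 7641 ± 4816 CPM in macrophages (SD, n = 6) against 70.4 ± 79.4 in fibroblasts (SD, n = 6), a log2 difference of 7.91 (SE 0.56, edgeR adjusted p = 5.77e-08), higher in 6 of 6 libraries. A Cxcl2 UMI was seen in 82.4% ± 10.2 of macrophages (SD, n = 6) and in 78.2% ± 10.9 after every cell was thinned to 1500 UMIs. The corresponding thinned shares were 1.23% to 1.61% in the 3 urothelial layers, and the part of free RNA in the droplets in these shares was not tested. Myeloid cells without C1q, a neighbouring class kept apart, held 215 to 968 CPM. Below macrophages, the order of the mean levels ran from fibroblasts to superficial cells (9.02 ± 6.25, SD, n = 6), and no neighbouring pair in it differed by more than its spread.

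Cxcl2 was also lower in myofibroblasts (26.4 ± 23.6 CPM, SD, n = 6) than in fibroblasts, by a log2 difference of -0.79 (SE 0.20, edgeR adjusted p = 0.00911) and in 6 of 6 libraries. Without acute replicate 1 the difference was -0.59 and the adjusted p 0.0591. No difference in Cxcl2 between urothelial layers passed the test, with log2 differences of -0.10 (SE 0.11) for basal and -0.06 (SE 0.16) for superficial against intermediate cells.

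Cxcl1 was spread over macrophages and the stroma. In macrophages the 6 libraries gave 2361 and 255 CPM in the healthy, 655 and 852 in the acute and 238 and 657 in the chronic condition. In fibroblasts they gave 966 and 68.7, 960.3 and 20.6, and 273 and 231 CPM in the same order. In myofibroblasts they gave 583 and 51.3, 197 and 7.26, and 163 and 68.8 CPM. The first healthy and the first acute library were therefore high in both stromal classes and the second of each was low, by 14.1-fold in healthy and 46.5-fold in acute fibroblasts, while the 2 chronic libraries were near each other in fibroblasts and 2.36-fold apart in myofibroblasts.

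Fibroblasts held a median of 43.4% of a library's Cxcl1 UMIs (6.32% to 62.9%) and macrophages 10.9% (3.14% to 41.3%), with macrophages holding more than fibroblasts in acute replicate 2 and chronic replicate 2. Cxcl1 averaged 836 ± 785 CPM in macrophages, 420.0 ± 431 in fibroblasts and 178 ± 211 in myofibroblasts (SD, n = 6 each), and no neighbouring classes in that order differed by more than the spread between libraries. Paired within libraries, it was lower in myofibroblasts than in fibroblasts in 6 of 6 libraries, with a log2 difference of -1.16 (SE 0.20, edgeR adjusted p = 2.98e-04). The macrophage difference from fibroblasts was 1.74 (SE 0.59, edgeR adjusted p = 0.0283) with 4 of 6 libraries higher, and it no longer passed without healthy replicate 1 (1.73, adjusted p = 0.0758) or healthy replicate 2 (1.60, adjusted p = 0.0916).

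In endothelial cells Cxcl1 measured 246 CPM in healthy replicate 1, 105 and 72.2 in the acute and 69.5 and 8.22 in the chronic libraries. It was lower than in the fibroblasts of the same libraries in 4 of 5, with a log2 difference of -1.80 (SE 0.63, edgeR adjusted p = 0.0376). That call was lost when any of 4 libraries was left out: healthy replicate 1 (-1.63, adjusted p = 0.12), acute replicate 1 (-1.26, 0.161), chronic replicate 1 (-1.78, 0.0939) or chronic replicate 2 (-1.52, 0.083). Cxcl2 was too low in endothelial cells to be tested against fibroblasts.

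The urothelium held little of either gene. Cxcl1 averaged 11.6 ± 13.1 CPM in basal, 10.3 ± 11.9 in intermediate and 6.62 ± 5.70 in superficial cells (SD, n = 6 each). None of the layer differences passed, the largest being superficial against intermediate (log2 -0.44, SE 0.19, edgeR adjusted p = 0.0586). After thinning, a Cxcl1 UMI was found in 1.10% to 1.57% of urothelial cells on average, as against 22.5% of fibroblasts and 29.97% of macrophages.

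Cxcl5, the third neutrophil ligand, was hardly seen. It was listed in 4 of the 6 tables, with UMIs in 2 of 9713 barcodes of healthy replicate 2, in 2 of 15062 of acute replicate 2, in 5 of 11251 of chronic replicate 1 and in 1 of 5348 of chronic replicate 2. At most 2 UMIs fell in any class of a library, so no class can be named as its source.

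Among the interferon-induced ligands, Cxcl10 was highest in macrophages and, in the stroma, was a myofibroblast gene. Its macrophage level was 1991 and 331 CPM in the healthy, 899 and 246 in the acute and 560.5 and 123 in the chronic libraries. Its myofibroblast level was 652 and 20.97, then 500.2 and 8.67, then 81.4 and 102 CPM. Its fibroblast level was 107 and 9.57, then 90.0 and 6.57, then 24.8 and 12.9 CPM. In every library macrophages exceeded myofibroblasts and myofibroblasts exceeded fibroblasts.

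The macrophage level of Cxcl10 exceeded the fibroblast level by a log2 difference of 4.73 (SE 0.26, edgeR adjusted p = 5.54e-09), and the myofibroblast level did so by 2.05 (SE 0.25, edgeR adjusted p = 8.26e-06). A Cxcl10 UMI was present in 48.9% ± 26.5 of macrophages and 19.6% ± 20.7 of myofibroblasts (SD, n = 6), and the shares after thinning were 39.5% and 14.9%, against 0.613% to 1.31% in the urothelial layers. Endothelial cells, at 241 CPM in healthy replicate 1, 125 and 83.7 in the acute and 57.9 and 41.1 in the chronic libraries, were above the fibroblasts of the same library in 5 of 5. That difference was 1.42 (SE 0.41, edgeR adjusted p = 0.0163).

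Cxcl10 was also the one member with a difference between urothelial layers that passed, at low levels. After thinning, a Cxcl10 UMI was seen in 0.613% of superficial, 1.20% of intermediate and 1.31% of basal cells on average. The part of free RNA in these levels was not tested. Superficial cells had 11.1 and 2.57 CPM in the healthy, 1.44 and 0.539 in the acute and 1.82 and 2.71 in the chronic libraries. Intermediate cells of the same libraries had 20.97 and 8.99, 7.61 and 3.11, and 6.62 and 5.202 CPM. The superficial level was lower in 6 of 6 libraries, by a log2 difference of -1.38 (SE 0.20, edgeR adjusted p = 1.90e-05). The basal level was higher than the intermediate level in 5 of 6 libraries, by 0.37 (SE 0.14, edgeR adjusted p = 0.0394), and this small difference was lost with DESeq2 (adjusted p = 0.185), with called doublets kept (0.0555), and without healthy replicate 1 (0.19, adjusted p = 0.417), acute replicate 1 (adjusted p = 0.0618) or chronic replicate 1 (adjusted p = 0.0965).

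Cxcl9, the other Cxcr3 ligand measured, was listed in 4 tables and most of its UMIs came from 1 of them. Healthy replicate 1 held 164 UMIs in 57 of its 8354 barcodes, of which 55 UMIs lay in 27 of 1047 myofibroblasts and 64 in 8 of 79 myeloid cells without C1q. Healthy replicate 2 held 9 UMIs, acute replicate 2 held 13 and chronic replicate 1 held 6. The library with most of the Cxcl9 UMIs was also the one with the highest Cxcl10 level in all 7 classes.

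**Figure D2:**
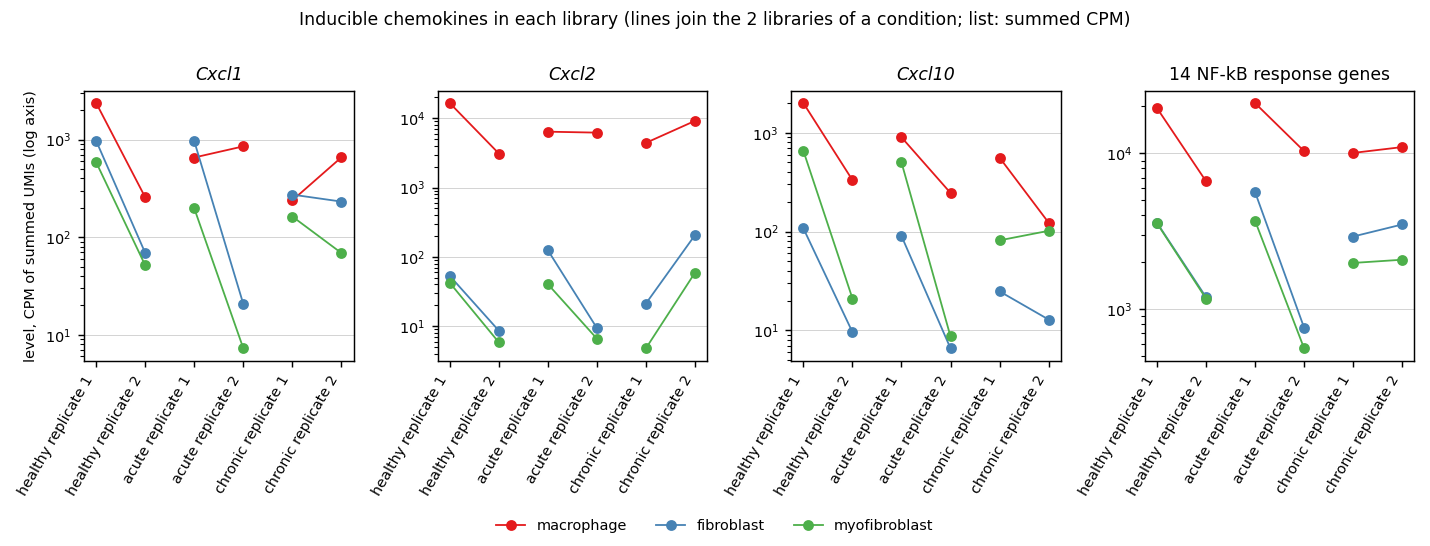
Level of Cxcl1, Cxcl2 and Cxcl10, and the summed level of 14 NF-kB response genes, in macrophages, fibroblasts and myofibroblasts of each library, in CPM on a log axis. Lines join the 2 libraries of a condition. Healthy and acute replicate 1 lie above replicate 2 in both stromal classes for all 4 measures, while the chronic libraries lie closer together in the stroma for Cxcl1, Cxcl10 and the list. In acute macrophages replicate 1 is higher for Cxcl10 and the list, lower for Cxcl1 and nearly equal for Cxcl2.

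In many classes at once, the inducible ligands varied between the 2 libraries of a condition as much as between conditions. Exceptions included intermediate Cxcl10 and endothelial Cxcl1, Cxcl2 and Cxcl10, where all treated libraries lay below the healthy level. The endothelial class had 1 healthy library. Healthy replicate 1 exceeded healthy replicate 2 in 6 of 6 classes for Cxcl1, Cxcl2 and Cxcl10, by 9.24 to 15.6-fold, 5.33 to 7.22-fold and 2.33 to 31.1-fold. Acute replicate 1 exceeded acute replicate 2 for Cxcl1 in 6 of 7 classes, the exception being macrophages, for Cxcl2 in 5 of 7, and for Cxcl10 in 7 of 7, by 1.49 to 57.7-fold. Among the chronic libraries replicate 1 was higher in 6 of 7 classes for Cxcl1 and 5 of 7 for Cxcl10, while for Cxcl2 replicate 2 was higher in 7 of 7 by 1.42 to 12.3-fold. Healthy replicate 1 was also higher in 6 of 6 classes for Cxcl14, by 1.04 to 4.22-fold, and for Cxcl16, by 1.03 to 2.45-fold. For Cxcl12 the ratio of replicate 1 to replicate 2 was 0.60 to 1.40 in the healthy, 0.35 to 2.76 in the acute and 0.47 to 4.77 in the chronic libraries, with replicate 1 higher in 1 of 6, 2 of 7 and 4 of 7 classes.

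A list of 14 NF-kB response genes, which includes the feedback inhibitors Nfkbia and Tnfaip3 and the cytokines Tnf and Il6, split the libraries in the same way in the stroma by its summed level. In fibroblasts its summed level was 3579 CPM in healthy replicate 1 and 1194 in healthy replicate 2, 5637 and 761 in the acute, and 2927 and 3497 in the chronic libraries. In myofibroblasts it was 3555 and 1169, 3689.8 and 561, and 1981 and 2078 CPM. In macrophages it was 19497 and 6619, 20997 and 10333, and 10067 and 10975 CPM. Acute macrophages did not split alike in Cxcl1 (655 and 852 CPM) and Cxcl2 (6408 and 6210), whereas Cxcl10 was at 899 and 246 CPM. Much of the fibroblast sum was Nfkbia, at 2187 and 660 CPM in the healthy and 2699 and 358 in the acute libraries. Tnf stayed at or below 2.73 CPM in these fibroblast sums. Il1b, also on the list, was higher in the second library there, at 0.683 and 4.62 in the healthy and 0.957 and 2.82 CPM in the acute. Of this list, 0 of 84 gene and class combinations passed in either contrast with edgeR (6 acute and 4 chronic at an unadjusted p below 0.05) or with DESeq2. The shares over all genes are given below. A further list held 18 immediate-early and dissociation genes, such as Fos, Jun and Hspa1a, which enzymatic release of cells is known to raise. Its summed level was lowest in acute replicate 2 in every class but endothelial cells. In fibroblasts it was 10809 CPM there against 21639.7 to 34245 in the other libraries. The gap was smaller in the urothelium and macrophages, as in basal cells with 10489 against 11348 to 17344 CPM. In endothelial cells the list was instead highest in acute replicate 2, at 25125 CPM. With edgeR and with DESeq2 0 of its 125 combinations passed in either contrast (5 in each at an unadjusted edgeR p below 0.05), and its part in the spread of Cxcl1 and Cxcl10 was not tested.

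Genes whose pattern over 41 library and class sums was most like that of these ligands were found among 8834 genes by the Pearson correlation of log2(CPM + 1), which is a description over sums that share libraries and depth. For Cxcl1 they were Rap1b (r = 0.92), a small GTPase, Ppp1r15a (0.89), a stress-induced phosphatase subunit, and Nfkbia (0.89), the NF-kB inhibitor. For Cxcl10 they were Ier3 (0.89), Nfkbiz (0.88) and Birc3 (0.88), of which the last 2 are NF-kB targets on the list above. For Cxcl2 they were the macrophage chemokines Ccl4 (0.94) and Ccl7 (0.93) and the macrophage membrane protein gene Ms4a7 (0.93). Among the members themselves, Cxcl1 and Cxcl10 were most alike (r = 0.87), then Cxcl2 and Cxcl16 (0.82), whereas Cxcl2 and Cxcl12 were unrelated (0.0021).

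Cxcl12, the constitutive stromal member, was a fibroblast and myofibroblast transcript that was also counted in endothelial cells. Its fibroblast level was 251 and 311 CPM in the healthy, 178 and 172 in the acute and 194 and 180.0 in the chronic libraries. Its myofibroblast level was 185 and 132, 62.9 and 148, and 57.4 and 118 CPM. Fibroblasts averaged 214 ± 55.5 CPM and myofibroblasts 117 ± 49.5 (SD, n = 6 each), a log2 difference of -0.80 in myofibroblasts (SE 0.17, edgeR adjusted p = 0.00282), lower in 6 of 6 libraries. Endothelial cells (131 ± 138 CPM, SD, n = 5) had a log2 difference from fibroblasts of -0.77 that did not pass (SE 0.38, edgeR adjusted p = 0.129). Their highest sum, that of healthy replicate 1, also held 819 CPM of Col1a1 and 970 of Dcn. The part of stromal RNA in the endothelial Cxcl12 level was not tested. Myofibroblasts stood above macrophages (16.9 ± 15.5 CPM, SD, n = 6) by more than the spread, whereas endothelial cells, with chronic values of 11.6 and 24.6 CPM, did not, and the urothelial layers averaged 3.03 to 4.37 CPM.

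Macrophages held 5 or 6 Cxcl12 UMIs in each healthy and acute library and 0 in each chronic library. A count of 0 in these chronic libraries allows up to 21.02 and 20.53 CPM. The healthy libraries had 20.7 CPM (95% exact counting interval 7.60 to 45.1) and 28.4 CPM (10.4 to 61.8), and the gene was too low in macrophages to be tested between conditions. The patterns nearest to Cxcl12 were those of Rhoj (r = 0.94), an endothelial and stromal GTPase, Gpx7 (0.91) and Cald1 (0.91), the actin-binding caldesmon.

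Cxcl13, the B-cell ligand, was listed in 5 tables and occurred in few cells. Of 77 UMIs in healthy replicate 1, 63 lay in 6 of 808 fibroblasts, and of 41 in healthy replicate 2, 25 lay in 6 of 74 macrophages. In acute replicate 2, 27 of 49 UMIs lay in 27 of 2691 myofibroblasts, which is 1 UMI a cell, and 11 in 6 of 127 macrophages. The chronic libraries held 3 and 7 UMIs.

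Cxcl14 was the most abundant chemokine outside macrophages and was a myofibroblast gene. The myofibroblast level was 5562 and 5331 CPM in the healthy, 6547 and 10252 in the acute and 3809.6 and 4460.1 in the chronic libraries. The fibroblast level was 471 and 236, 107 and 1221, and 192 and 154 CPM. The classes did not overlap, and myofibroblasts held a median of 82.4% of a library's Cxcl14 UMIs.

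Myofibroblasts exceeded fibroblasts in Cxcl14 by a log2 difference of 4.32 (SE 0.28, edgeR adjusted p = 7.25e-09), 5994 ± 2289 against 397 ± 423 CPM (SD, n = 6 each) and in 6 of 6 libraries. At least 1 Cxcl14 UMI was present in 92.3% ± 6.47 of myofibroblasts and 30.2% ± 17.8 of fibroblasts (SD, n = 6), or 87.9% and 24.4% after thinning. Macrophages were below fibroblasts by -2.21 (SE 0.34, edgeR adjusted p = 1.13e-04) and endothelial cells by -1.26 (SE 0.40, edgeR adjusted p = 0.023), the latter not without acute replicate 2 (-0.84, adjusted p = 0.131). The nearest patterns were those of Car3 (r = 0.95), one of the markers that named the myofibroblast class, Rerg (0.93), a Ras-like growth inhibitor, and Col6a3 (0.93), a collagen VI chain.

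**Figure D3:**
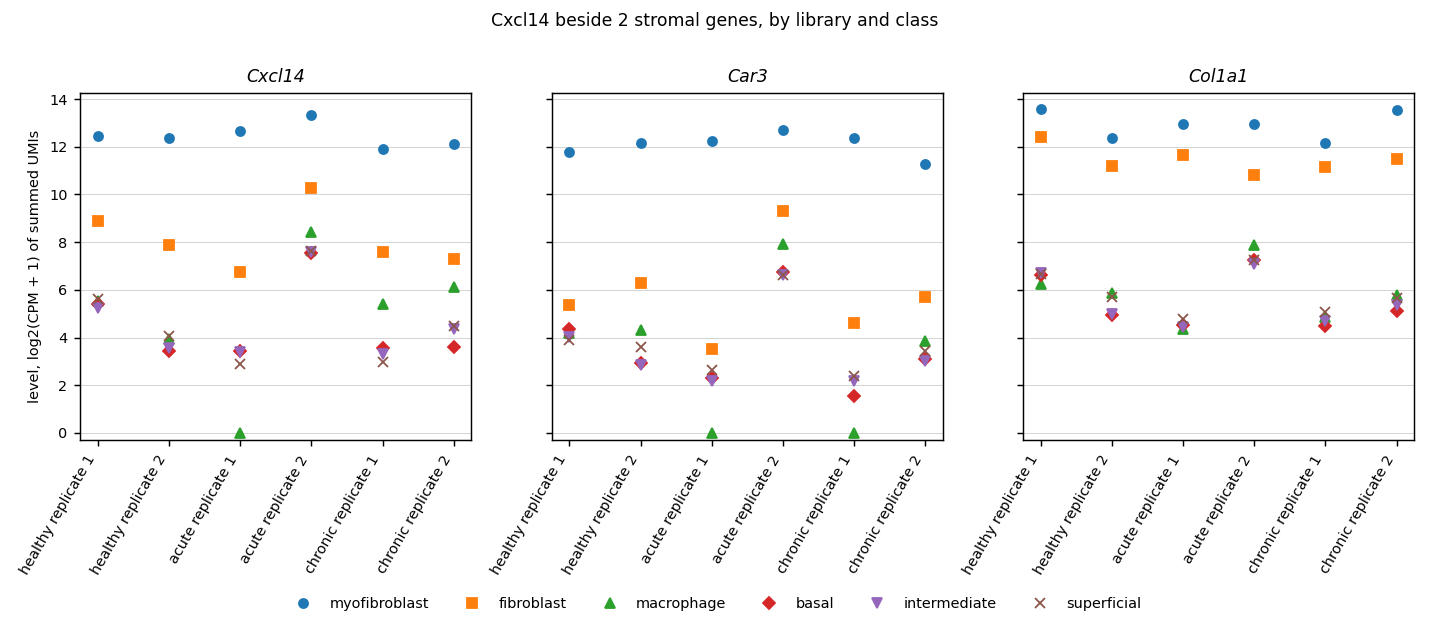
Level of Cxcl14, Car3 and Col1a1 in 6 classes of each library, as log2(CPM + 1) of summed UMIs. In acute replicate 2 all 3 genes are higher in the urothelial layers and macrophages than in the other libraries, while their myofibroblast levels differ less.

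In acute replicate 2, Cxcl14 was high in the urothelial layers, macrophages and NK cells, and some stromal transcripts moved with it. The urothelial level of Cxcl14 was 186 to 199 CPM in its 3 layers, against 6.49 to 47.9 in the layers of the other 5 libraries. Macrophages of that library gave 344 CPM against 0 to 68.4 elsewhere, and NK cells gave 317 against 57.0 and 38.3 in the healthy libraries. A Cxcl14 UMI was present in 60.4% to 74.8% of its urothelial cells, and in 24.1% to 26.5% after thinning, against 0.704% to 9.09% in the other libraries. Endothelial cells of acute replicate 2, at 287 CPM, lay below those of healthy replicate 1 (355 CPM) and above the other libraries used (0 to 131 CPM).

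Car3 and Col1a1 were high in the urothelial cells and macrophages of the same library. In basal cells of acute replicate 2 the carbonic anhydrase gene Car3 was at 106 CPM against 1.95 to 19.5 in the other libraries, and the collagen gene Col1a1 was at 149.7 against 21.5 to 98.8. The 6 mesenchymal markers together reached 942 CPM in basal cells there, with 223 in acute replicate 1 and 290.4 to 666 in the other 4 libraries. Dcn, a fibroblast proteoglycan gene, stood apart less: its basal level was 197 CPM there against 56.7 to 188 in the other libraries, its macrophage level 383 against 96.3 to 260.2, and its intermediate-cell level 177 with 187 in chronic replicate 1. That library also held the most myofibroblasts, 2691 cells. The part of free stromal RNA in the urothelial Cxcl14 level was not tested.

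**Figure D4:**
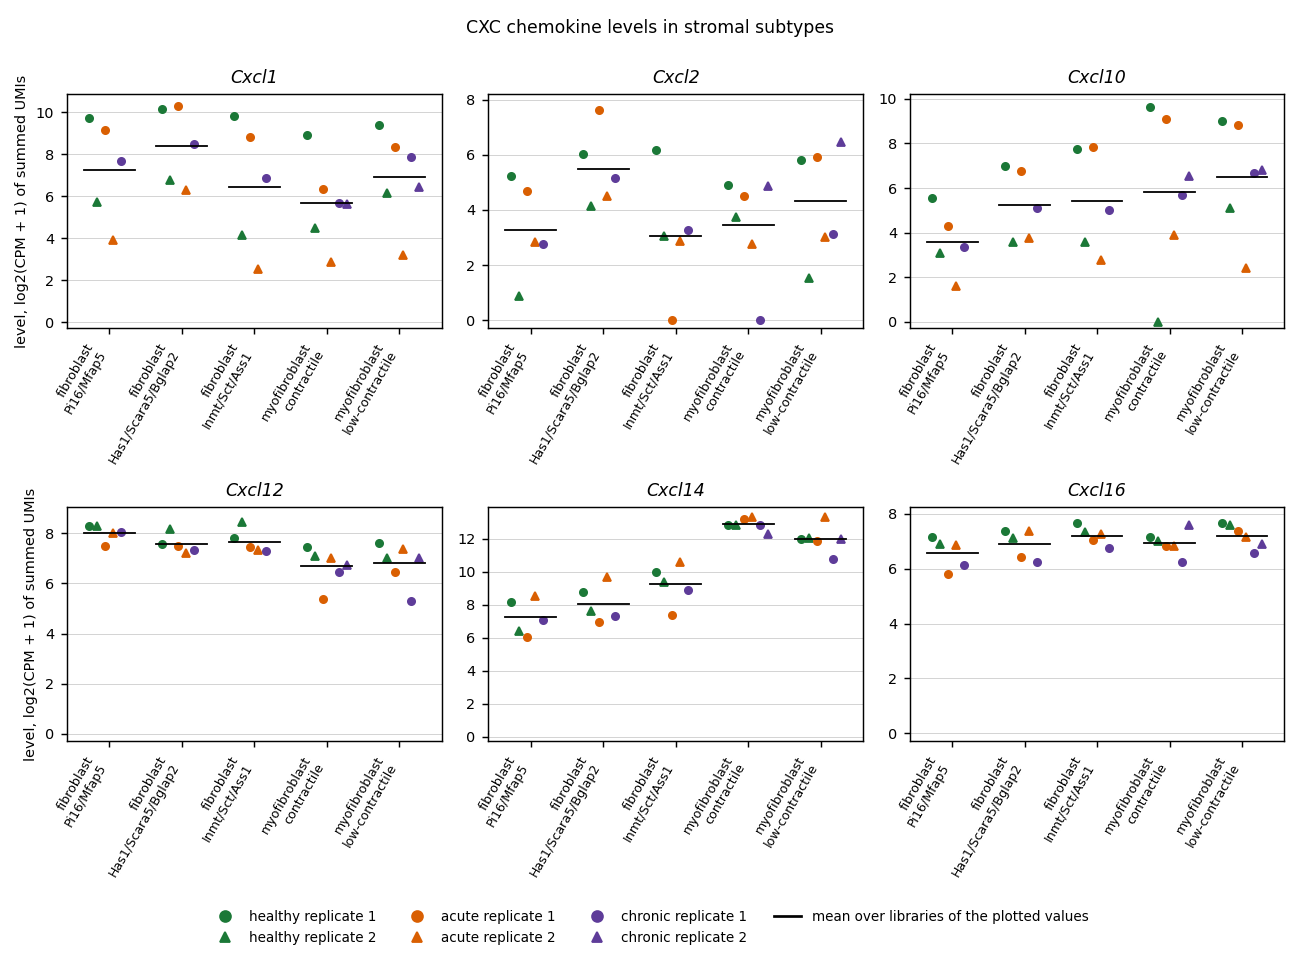
Level of the 6 tested chemokines in 3 fibroblast and 2 myofibroblast subtypes, as log2(CPM + 1) of summed UMIs, with points for libraries with at least 20 cells of the subtype and bars for means of the plotted values. Cxcl14 is higher in contractile than in low-contractile myofibroblasts in all 6 libraries and rises from Pi16/Mfap5 to Inmt/Sct/Ass1 fibroblasts, and Cxcl1 is highest in the Has1/Scara5/Bglap2 fibroblasts of all 5 libraries shown.

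Stromal subtypes differed further, as a description without a test. Contractile myofibroblasts, the sub-clusters at or above the mean score of Acta2, Tagln, Myl9 and Actg2, had 7156 and 7159 CPM of Cxcl14 in the healthy, 9208 and 10323 in the acute and 7150.5 and 4926 in the chronic libraries. Low-contractile myofibroblasts had 4038 and 4212, 3722 and 10194, and 1743 and 4052 CPM, and were lower in 6 of 6 libraries. For Cxcl1 the order was the opposite, 486 against 676 CPM in healthy replicate 1 and 81.5 against 319 in acute replicate 1, again in 6 of 6. Among fibroblasts, Inmt/Sct/Ass1 cells held the most Cxcl14 (1025 and 669 CPM in the healthy libraries, with 281 and 82.5 in Pi16/Mfap5 cells), and Has1/Scara5/Bglap2 cells held the most Cxcl1 (1149 and 108, with 841 and 51.2 in Pi16/Mfap5 cells).

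Cxcl16 was the broadest member. Its macrophage level was 777 and 317 CPM in the healthy, 141 and 648 in the acute and 273 and 479 in the chronic libraries. Urothelial layers averaged 78.1 to 84.0 CPM, myofibroblasts 140.2 ± 31.1, fibroblasts 130.5 ± 42.9 (SD, n = 6 each) and endothelial cells 63.8 ± 21.6 (SD, n = 5). Intermediate cells carried a median of 36.5% of a library's Cxcl16 UMIs, against 20.1% for Cxcl10 and 10.9% for Cxcl1, and made up 20.5% to 47.8% of its cells.

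Macrophages (439 ± 241 CPM, SD, n = 6) exceeded fibroblasts in Cxcl16 by a log2 difference of 2.02 (SE 0.21, edgeR adjusted p = 2.99e-06), in 6 of 6 libraries. Endothelial cells were below fibroblasts by -1.31 (SE 0.25, edgeR adjusted p = 0.00123), in 5 of 5. The difference of myofibroblasts from fibroblasts did not pass (0.20, SE 0.13, edgeR adjusted p = 0.407), nor did those of basal (0.03, SE 0.06) and superficial (0.13, SE 0.11) from intermediate cells. A Cxcl16 UMI was found in 47.5% of superficial and 26.4% of basal cells, but in 11.8% and 11.0% after thinning to equal depth. The nearest patterns were those of the myeloid genes Tbxas1, Arl5c and Csf1r (r = 0.85 each).

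**Figure D5:**
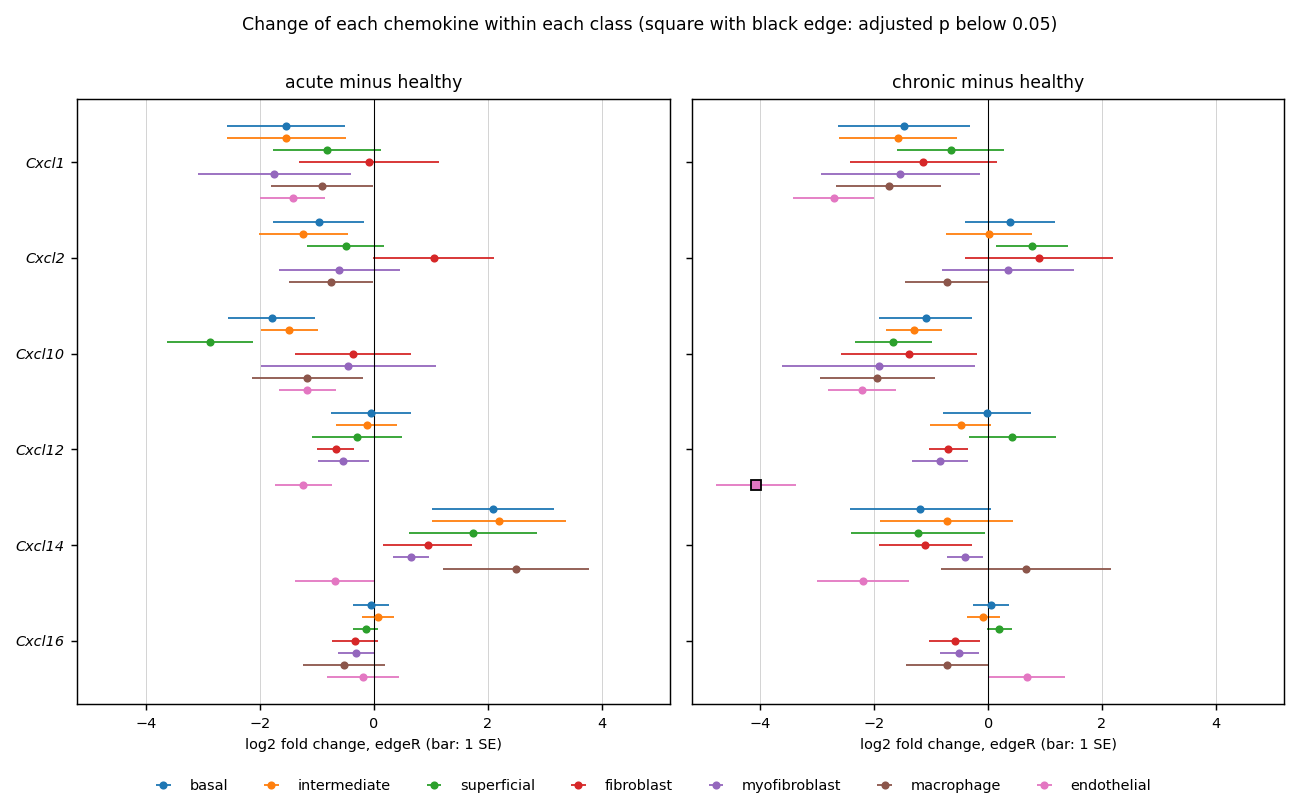
Fitted log2 fold change of each tested chemokine between CPP-treated and healthy libraries within each class, with bars of 1 SE, for the acute (left) and chronic (right) groups. Of 80 values plotted, 1 passed the test, Cxcl12 in chronic endothelial cells (square), and that fit rested on 1 healthy library.

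The second question was whether the chemokines changed after acute or repeated CPP. In the acute contrast 0 of 40 member and class combinations passed with edgeR (2 of 42 were too low to test), with 6 at an unadjusted p below 0.05, and DESeq2 passed 0 as well. The smallest adjusted p was 0.939. By share of all genes tested, those with an unadjusted edgeR p below 0.05 ran from 302 of 12875 (intermediate) to 506 of 10997 (superficial) in the acute contrast. In the chronic contrast they ran from 588 of 12875 (intermediate) to 808 of 5297 (endothelial), and 6 of 40 member combinations had such a p. Over all genes the acute contrast called 0% in basal, intermediate, superficial and macrophage cells, 0.118% in fibroblasts, 0.0489% in myofibroblasts and 0.113% in endothelial cells. The chronic contrast called 0% in the 3 urothelial layers and in myofibroblasts, 0.0635% in fibroblasts, 0.0329% in macrophages and 2.04% in endothelial cells, and 1 of 40 member combinations passed. Where edgeR called 0 genes, 73 to 639 genes had an unadjusted p below 0.05 and DESeq2 called 2 to 43. Over both contrasts 8 passed without acute replicate 1, 4 without acute replicate 2 and 2 without either chronic library; without healthy replicate 1 none did, since the endothelial class then has no healthy library.

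The combination that passed was Cxcl12 in endothelial cells after repeated CPP. It measured 350.2 CPM (74 UMIs) in healthy replicate 1, 100.0 and 167 CPM (20 and 102 UMIs) in the acute, and 11.6 and 24.6 CPM (1 and 3 UMIs) in the chronic libraries. The chronic libraries lay below both other conditions. The log2 fold change was -4.07 (SE 0.70, edgeR adjusted p = 0.00593), and both chronic libraries together stood at 0.0549 of the healthy level by counting (95% exact interval 0.0146 to 0.147, which covers counting error only). The healthy side was a single library of 52 cells, so the SE and p rest on the spread of the acute and chronic pairs and hold none between healthy libraries. When the 15 endothelial cells of healthy replicate 2 (123 CPM, 6 UMIs) were added, the fold change was -3.67 and the adjusted p 0.168, and DESeq2 gave -4.19 (SE 1.13) with an unadjusted p of 1.95e-04 and no adjusted p.

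Other values moved with the endothelial class. The summed level of 6 endothelial markers was 4931 CPM in healthy replicate 1, 2759 to 4212 in the acute and 1289.9 to 2364 in the chronic libraries. That of 7 urothelial markers was 1382, 2637 to 4534 and 6999.8 to 8561 CPM. In chronic basal cells the urothelial markers summed to 5200 to 5991 CPM and the endothelial markers to 3.90 to 11.8 CPM. The chronic endothelial sums thus held more urothelial marker RNA than basal cells did, beside their endothelial markers. The stromal genes Col1a1 and Dcn also moved: Col1a1 was at 819 CPM in healthy replicate 1, 309.9 and 166 in the acute and 34.8 and 255 in the chronic libraries, and Dcn at 970.1, 395 and 364, and 197 and 131 CPM. Their part in the Cxcl12 value was not tested. In the same contrast Cxcl1 (-2.71, adjusted p = 0.0559), Cxcl10 (-2.21, 0.058) and Cxcl14 (-2.19, 0.188) did not pass. With called doublets kept Cxcl1 was at -2.86 (edgeR adjusted p = 0.0319), and without chronic replicate 1 it was at -4.78. Without chronic replicate 2 the Cxcl14 fit rested on a chronic library at 0, where the fitted value is no bound. The fits without a chronic library set 1 healthy against 1 chronic library, with the spread from the acute pair alone. All 3 passed when an acute library was left out, fits in which the spread comes from the 2 chronic libraries alone (Cxcl1 -2.71, edgeR adjusted p = 0.00255 to 0.00306; Cxcl10 -2.21, 0.0122 to 0.0162; Cxcl14 -2.17, 0.00546 to 0.00839) and with genes of any count in the fit.

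For the neutrophil ligands, macrophage Cxcl2 was 9816 ± 9499 CPM in the healthy, 6309 ± 140.1 in the acute and 6798 ± 3362 in the chronic condition (SD, n = 2 each). Its log2 fold changes were -0.75 (SE 0.74) and -0.72 (SE 0.74). Without healthy replicate 1 they were 1.01 and 1.04, so the direction rested on that library. Macrophage Cxcl1 gave -0.91 and -1.75, and 1.56 and 0.72 without it. With genes of any count in the fit the chronic value passed (-1.82, edgeR adjusted p = 0.0243).

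Fibroblast Cxcl1 showed how far the libraries decide the result. Its acute fold change was -0.09 (SE 1.23, edgeR adjusted p = 1). Without healthy replicate 1 it was 2.82 and without acute replicate 2 it was 0.89. Without acute replicate 1 it was -4.62 and passed (edgeR adjusted p = 2.15e-05). With 1 acute library left, which is assumed to vary like the others, fibroblast Cxcl10 (-3.11, edgeR adjusted p = 0.00164), fibroblast Cxcl14 (1.81, 0.0191) and basal Cxcl14 (3.01, 0.0447) passed too. The acute library left, replicate 2, also had 634 CPM of Car3 in fibroblasts against 10.5 to 78.2 in the other libraries, and 963 of its 1448 fibroblasts were of the Inmt/Sct/Ass1 subtype, which carried the most Cxcl14. The part of these in the fibroblast values was not tested. The chronic value of fibroblast Cxcl1 was -1.14, and 1.75 without healthy replicate 1.

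Cxcl10 was lower in the acute than in the healthy libraries in every class by its point estimate, from -0.37 in fibroblasts to -2.87 in superficial cells, and lower in every class in the chronic libraries, from -1.10 in basal to -2.21 in endothelial cells. The superficial acute value had an unadjusted p of 0.00384 and an adjusted p of 0.939. Myofibroblast Cxcl10 was at -0.45 in the acute contrast, but 3.61 without healthy replicate 1 and 0.57 without acute replicate 2, and its chronic value of -1.92 was 2.08 without healthy replicate 1. The acute macrophage value of -1.17 was 0.73 without healthy replicate 1, and the chronic one of -1.94 did not pass (edgeR adjusted p = 0.872) but did with genes of any count (-2.05, 0.00448), and with 1 library left out it ran from -3.48 to -0.04, the latter without healthy replicate 1. In basal, superficial, fibroblast, myofibroblast and macrophage cells healthy replicate 2 lay below at least 1 chronic library, as in fibroblasts with 9.57 against 24.8 and 12.9 CPM.

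A list of 13 interferon response genes, such as Isg15 and Ifit3, had medians above 0 in the acute contrast in 7 of 7 classes, from 0.38 in endothelial cells to 1.71 in fibroblasts, while the medians of all genes ran from -0.03 to 0.05. In the chronic contrast its medians were 0.62 to 1.31 in 6 classes and -0.69 in endothelial cells. Of 78 combinations 1 passed upward, Ifit3 in acute myofibroblasts, and in the chronic contrast 1 passed downward, Iigp1 in endothelial cells, while 28 in each contrast had an unadjusted p below 0.05 and DESeq2 called 4 and 3. Over all genes tested, the class with the largest share at such a p had 506 of 10997 (acute, superficial) and 808 of 5297 (chronic, endothelial). The summed level of the list in macrophages was 2585 and 681 CPM in the healthy against 2934 and 2782 in the acute libraries, and in basal cells 143.6 and 81.8 against 136 and 152. Healthy replicate 1 thus lay near the acute level in these classes and healthy replicate 2 below it. In the stroma both healthy libraries lay below both acute ones, with 893 and 413 against 1470 and 2765 CPM in fibroblasts and 1110 and 407 against 2041 and 1408 in myofibroblasts, whereas Cxcl10 was high in healthy replicate 1. No test of the difference between the list and Cxcl10 was made.

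Neither constitutive stromal member passed in the stroma. Fibroblast Cxcl12 was 281 ± 42.5 CPM in the healthy, 175 ± 4.49 in the acute and 187 ± 9.58 in the chronic condition (SD, n = 2 each), and neither treated group overlapped the healthy one. The log2 fold changes were -0.67 (SE 0.32) and -0.70 (SE 0.34), with unadjusted p of 0.0622 and 0.0632 and edgeR adjusted p of 1 and 0.904. Myofibroblast Cxcl14 was 5447 ± 164, 8399.6 ± 2619.8 and 4135 ± 459.9 CPM (SD, n = 2 each), with the acute libraries above and the chronic libraries below the healthy ones. Its fold changes of 0.65 (SE 0.32) and -0.41 (SE 0.32) had edgeR adjusted p of 1 and 0.843, and without acute replicate 2 the first was 0.31.

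Outside the stroma the acute Cxcl14 estimates were 2.09 in basal, 2.20 in intermediate, 1.74 in superficial and 2.50 in macrophage cells, with edgeR adjusted p of 0.998 to 1. They rested on acute replicate 2, since acute replicate 1 gave 9.97, 9.46, 6.49 and 0 CPM in these classes against healthy values of 9.93 to 47.9 CPM in the urothelium. In endothelial cells the estimate went the other way, at -0.69 (SE 0.70), with 355 CPM in the 1 healthy library and 100.0 and 287 in the acute libraries. The macrophage value passed with genes of any count (2.56, edgeR adjusted p = 0.00231). Cxcl16 had log2 fold changes from -0.52 to 0.08 in the acute and from -0.72 to 0.67 in the chronic contrast. The macrophage values of -0.52 and -0.72 became 0.36 and 0.16 without healthy replicate 1, and the acute one 0.16 without acute replicate 1.

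Receptors and further ligands were read from a fixed list. Of 11 receptors and atypical receptors, 5 were listed in all tables. Cxcr2, the receptor of the neutrophil ligands, reached a class mean of only 0.743 ± 0.42 CPM (SD, n = 6). Neutrophils, which carry it, were not among the 7 classes. Cxcr4, the Cxcl12 receptor, was a macrophage transcript at 48.3 and 52.0 CPM in the healthy, 25.7 and 162 in the acute and 42.03 and 363 in the chronic libraries, and at most 15 CPM in the other 6 classes. Ackr3 averaged 50.6 ± 24.2 CPM in myofibroblasts (SD, n = 6), and in the urothelium it was higher in basal than in intermediate cells by a log2 difference of 1.55 (SE 0.09, edgeR adjusted p = 2.03e-11) and lower in superficial cells by -1.97 (SE 0.21, edgeR adjusted p = 5.74e-07).

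Ackr1, which binds inflammatory chemokines on venular endothelium, averaged 217 ± 116 CPM in endothelial cells (SD, n = 5) and exceeded the fibroblast level by 3.13 (SE 0.32, edgeR adjusted p = 6.81e-06). Ccrl2 averaged 499 ± 275 CPM in macrophages (SD, n = 6), above fibroblasts by 4.94 (SE 0.32, edgeR adjusted p = 2.57e-08), and was lower in basal (-0.44, adjusted p = 0.0107) and superficial cells (-1.003, adjusted p = 2.06e-04) than in intermediate cells. Of 6 further CXC ligands, 4 were listed in all tables. Pf4, platelet factor 4, was a macrophage gene at 4656 ± 1968 CPM (SD, n = 6) and exceeded the fibroblast level by 10.16 (SE 0.39, edgeR adjusted p = 1.64e-10), while Cxcl15 stayed at or below a mean of 4.63 CPM and was lower in superficial than in intermediate cells (-2.54, adjusted p = 7.08e-05).

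Of 3 proteases on the list, the Cxcl16 sheddases Adam10 and Adam17 were listed in all tables. Adam10 averaged 219 ± 65.8 CPM in basal cells (SD, n = 6) and was lower in superficial than in intermediate cells (-0.34, edgeR adjusted p = 3.78e-04) and higher in endothelial cells than in fibroblasts (1.54, adjusted p = 1.14e-04). Adam17 averaged 39.1 ± 4.86 CPM in macrophages (SD, n = 6) and was higher there than in fibroblasts (1.01, adjusted p = 0.00462), higher in superficial than in intermediate cells (0.61, adjusted p = 1.00e-05) and lower in myofibroblasts than in fibroblasts (-0.50, adjusted p = 0.044). Between conditions, 0 of 18 receptor, 0 of 9 ligand and 0 of 12 protease combinations passed in either contrast with edgeR or DESeq2, with 0, 1 and 0 at an unadjusted p below 0.05 in the acute and 2, 4 and 2 in the chronic contrast. Over all genes tested such a p had shares from 302 of 12875 to 506 of 10997 per class in the acute, and from 588 of 12875 to 808 of 5297 in the chronic contrast.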

How the data were processed

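Libraries were made by droplet capture from bladder mucosa. Per the labels and methods the authors aligned reads with Cell Ranger to mm10 and deposited raw UMI counts per gene and barcode, 1 table per library. The 6 tables list different numbers of genes (15065 to 20180), and 0 columns of per-sample values were left unused. The last line of the healthy replicate 1 table was cut short and was left out. Barcodes passed with more than 500 genes and less than 10% of UMIs from mitochondrial genes. Doublets were scored with Scrublet in scanpy 1.11.5 and the highest-scoring cells were called at 0.8% per 1000 cells, and clusters with over 33.3% of them were left out. Libraries were integrated in Seurat 5.3.0 with sctransform 0.4.2 on 3000 features without the chemokines or their receptors, and clustered on 30 components with 20 neighbours (Leiden, resolution 0.8, igraph 0.11.9). Clusters were named from fixed markers, and the rule for sub-clusters was settled after they were seen. The authors' cell annotation was not used here.

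Counts were summed per library and class (at least 20 cells) and tested in edgeR 4.0.16 (R 4.3.3) with TMM factors, filterByExpr, the quasi-likelihood F test and Benjamini-Hochberg adjustment over all genes at 0.05, with all libraries of a class in 1 fit, or with the library as a block between classes. With 2 libraries against 2, an exact permutation test cannot go below 0.333, so none was used. The procedure was tested on simulated data, in which 71.0% to 79.0% of genes changed by 2 on the log2 scale were recovered in the urothelial layers, fibroblasts and myofibroblasts, 48.0% in macrophages and 21.0% in endothelial cells. The changed genes were drawn at random from all genes tested, each with its own spread. These shares are not the recovery of a single member, such as acute fibroblast Cxcl1 (SE 1.23) or acute myofibroblast Cxcl10 (SE 1.54). Unchanged genes were called as well, 41 beside 143 recovered in fibroblasts, 16 beside 144 in intermediate cells, 8 beside 142 in myofibroblasts and 1 to 8 in each other class. The simulated calls in fibroblasts and intermediate cells, and by little in myofibroblasts, thus held more false ones than the threshold allows. DESeq2 1.42.0 and the other alternatives are described below. Depth was 54604109 to 111985678 UMIs per library, and limits from a count of 0 and intervals called exact or counting cover counting error only, while edgeR standard errors carry the spread between libraries. P-values measure only the spread between these libraries.

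Named genes were the 9 members, listed receptors, ligands and proteases that passed or exceeded 20 CPM in their highest class, and the 3 nearest patterns of each member over 20 CPM. Members and gene lists were chosen with earlier results of these data known. Positions are from GENCODE M21.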

Additional observations from a re-analysis of the deposited data

How the results depend on the processing

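The 61 results were recomputed under up to 15 other settings, as not every setting applied to every result. The 1 member call between conditions became 0 with DESeq2 (which gave Cxcl12 -4.19 but no adjusted p), 7 with every gene of any count, 2 with called doublets kept, 0 with at least 10 cells per library and 0 to 8 with 1 library left out. Genes called in the acute contrast (23 over 7 classes) were 71 with DESeq2, 173 with any count and 9 to 450 with 1 library left out. Genes called in the chronic contrast (116) were 196 with DESeq2, 343 with any count, 24 without integration, 8 with at least 10 cells and 11 to 377 with 1 library left out. Between classes, the basal against intermediate member count of 1 became 0 with DESeq2 and with doublets kept and 0 to 1 with 1 library left out, and the superficial against intermediate count of 1 became 2 with any count and with doublets kept and 1 to 2 with 1 library left out. Genes called were 1357 to 2193 for myofibroblasts against fibroblasts (2049) with 1 library left out, 3261 with DESeq2 and 4316 with any count for macrophages (2109; 1641 to 3018 with 1 left out), and 3881 with any count for endothelial cells (2338; 1349 to 2863). The settings at least 10 cells and unnamed urothelial sub-clusters included were chosen after seeing the data, and the cause of these shifts was not tested.

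The labels share replicate numbers across conditions, but same-numbered libraries did not deviate together across all 3: over 6 classes the correlations of their deviations ran from -0.07 to 0.41 between healthy and acute, above 0.1 in 5 classes, but from -0.33 to -0.02 between healthy and chronic and from -0.17 to 0.11 between acute and chronic. A fit with a replicate block called 35 genes in the acute and 31 in the chronic contrast, gave Cxcl12 in chronic endothelial cells -4.70 (edgeR adjusted p = 0.0173), and reversed Cxcl10 in chronic myofibroblasts (0.28).

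Leaving out 1 library reversed these log2 fold changes: Cxcl1 in macrophages (acute -1.77 to 1.56, chronic -2.73 to 0.72) and fibroblasts (acute -4.62 to 2.82, with 0.89 without acute replicate 2, chronic -2.05 to 1.75), Cxcl2 in macrophages (acute -1.53 to 1.01, chronic -1.50 to 1.04), Cxcl10 in macrophages (acute -2.35 to 0.73) and myofibroblasts (acute -5.30 to 3.61, with 0.57 without acute replicate 2, chronic -2.89 to 2.08), and Cxcl16 in macrophages (acute -2.08 to 0.36, with 0.16 without acute replicate 1, chronic -1.26 to 0.16). With 2 libraries a condition, a difference smaller than the spread between them was not detectable.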

Other observations

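Several classes outside the comparisons also carried the chemokines. Cycling urothelial cells had 63.8 CPM of Cxcl10 in healthy replicate 1 and 15.4 in healthy replicate 2, 10.6 and 4.66 in the acute and 7.55 and 5.07 in the chronic libraries. Mural cells, in the 2 libraries with at least 20 of them, had 383 and 292 CPM of Cxcl1 in acute replicates 1 and 2, from 23 and 119 cells. NK cells had 77.4 and 63.8 CPM of Cxcl2 in the healthy libraries and 178 in acute replicate 2. Urothelial sub-clusters that the markers left unnamed, 337 to 1067 cells per library, had 464 CPM of Cxcl14 in acute replicate 2 and 7.82 to 43.0 CPM in the other 5 libraries, with 472 CPM of Col1a1 in the first. None of these values was compared by a test.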
